A study of Mus musculus with 6 samples.

Results

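Glycolysis, glucose uptake and glycogen genes form a set of 31 genes, each found in exactly 1 of the 25901 rows of the deposited table. The genes were chosen by name, but with earlier results of these data known. They were followed in whole hearts of 3 SRAKO mice, which carry a knockout named for the steroid receptor RNA activator SRA, and 3 wild-type (WT) mice. Every animal of both genotypes had received isoproterenol, an agonist of beta-adrenergic receptors that causes cardiac hypertrophy, over 4 weeks. Nothing here measures the response to that drug, since no untreated heart was analysed here. The labels do not state the strain, age or sex of the mice, which part of the Sra1 gene was removed, or whether it was removed in all cells. Hearts are named by the animal numbers in the labels, and values are given in the order SRAKO2365, SRAKO2371, SRAKO2372 for SRAKO hearts and WT2368, WT2379, WT2378 for WT hearts. The unit is FPKM, fragments per kilobase of transcript scaled by the size of the library, which allows levels of different genes to be compared. Totals of the FPKM column ran from 533264 to 551937 in SRAKO hearts and were 594266, 516817 and 524178 in WT hearts. FPKM is scaled by the library and not by these totals, which were highest in WT2368.

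Glucose enters the cardiomyocyte through the transporters GLUT1 and GLUT4 and is trapped as glucose 6-phosphate by hexokinases. Glycolysis then splits it to pyruvate, which is oxidised in mitochondria or reduced to lactate, and glycogen is built from the same glucose 6-phosphate by glycogen synthase and broken down by glycogen phosphorylase. The adult heart burns mainly fatty acids, and hypertrophied hearts are known for a greater reliance on glucose and for a return of isozymes typical of the fetal heart. Beta-adrenergic signalling acts on this pathway through cyclic AMP: protein kinase A activates phosphorylase kinase, a complex of several subunits that in turn activates phosphorylase.

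Promoters are shown for the gene with the largest difference between genotypes, Phka1, and for the hexokinase pair Hk1 and Hk2, whose ratio separated the genotypes. The sequences are those of RefSeq on build GRCm38.p6, from 250 bases before to 50 bases after a gene's start, 5′ to 3′ on the gene's strand. Capitals mark the letters ACGTG, the core of the element bound by hypoxia-inducible factors, or the same letters read on the other strand, CACGT. The Phka1 promoter lies at chrX:102644197-102644496, the Hk2 promoter at chr6:82774405-82774704, and the Hk1 promoters at chr10:62379859-62380158 and chr10:62340372-62340671, all on the minus strand.

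Phka1: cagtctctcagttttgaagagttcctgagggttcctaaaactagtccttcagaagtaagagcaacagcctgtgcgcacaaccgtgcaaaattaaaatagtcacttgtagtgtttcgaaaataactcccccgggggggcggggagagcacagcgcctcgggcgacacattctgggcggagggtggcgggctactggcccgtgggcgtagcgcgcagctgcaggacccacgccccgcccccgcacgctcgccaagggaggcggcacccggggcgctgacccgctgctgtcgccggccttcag

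Hk2: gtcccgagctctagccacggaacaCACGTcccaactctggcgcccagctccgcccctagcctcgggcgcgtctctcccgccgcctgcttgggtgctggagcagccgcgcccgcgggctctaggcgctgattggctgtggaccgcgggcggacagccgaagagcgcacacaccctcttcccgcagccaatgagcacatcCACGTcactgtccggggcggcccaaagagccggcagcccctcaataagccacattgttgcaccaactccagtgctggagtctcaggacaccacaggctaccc

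Hk1, first start: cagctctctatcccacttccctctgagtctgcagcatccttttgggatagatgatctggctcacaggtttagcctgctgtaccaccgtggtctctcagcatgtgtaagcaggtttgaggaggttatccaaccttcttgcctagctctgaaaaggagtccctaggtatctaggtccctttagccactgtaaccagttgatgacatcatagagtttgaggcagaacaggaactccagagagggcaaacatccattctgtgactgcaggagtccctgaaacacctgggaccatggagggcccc

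Hk1, second start: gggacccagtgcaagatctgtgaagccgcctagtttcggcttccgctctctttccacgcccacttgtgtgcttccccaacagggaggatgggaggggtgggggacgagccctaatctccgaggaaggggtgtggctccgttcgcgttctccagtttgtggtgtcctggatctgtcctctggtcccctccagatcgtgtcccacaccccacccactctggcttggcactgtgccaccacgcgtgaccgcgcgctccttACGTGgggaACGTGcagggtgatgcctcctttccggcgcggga

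The core is found 2 times in the Hk2 promoter and 2 times at the second Hk1 start, and it is not among the letters of the Phka1 promoter or of the first Hk1 start. RefSeq promoters were matched for 30 of the 31 genes, and 9 of these genes have several starts; Slc2a4 was not matched. ACGTG on either strand occurs in 20 of the 46 promoters of these genes, 43.5%, against 19.6% of all 32851 promoters of the same length. Counted by gene, it occurs in 17 of the 30 matched genes, against 21.8% of all 27025 genes. The E-box CACGTG, which contains ACGTG and so overlaps it, occurs in 5 of the 46 promoters, 10.9%, against 7.15% of all. Windows of the same gene can overlap, as for Aldoa, so a match can be counted more than once among promoters. The promoters were not matched to all others for GC content. These counts describe letters in a window and say nothing about binding in these hearts.

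The knockout, the libraries and the tissue were checked before the genes were compared. Sra1 was at 1.96, 1.78 and 2.05 FPKM in SRAKO hearts, against 4.40, 6.31 and 4.23 FPKM in WT hearts, so the genotypes did not overlap (38.8% of WT; exact two-sided permutation test, p = 0.1, the smallest that 3 hearts against 3 allow). Its log2 difference was -1.01 (SE 0.14) and did not pass the adjusted threshold used for the other genes (limma, adjusted p = 0.258). The summed level of 10 cardiomyocyte markers was 12917 to 16278 FPKM in SRAKO hearts and 13165 to 14371 FPKM in WT hearts. Mb was its largest part, at a mean of 7309 FPKM over all hearts, and Ttn its smallest at 8.78 FPKM. Of these markers 7 were higher and 3 lower in SRAKO hearts, where 53.5% of all rows tested were higher. The genotypes did not overlap for Ttn (74.1% of WT) and Ryr2 (88.4% of WT), both lower in SRAKO hearts. Neither passed (limma, adjusted p = 0.999 for each), and 8.05% of all rows tested did not overlap. Of 9 skeletal muscle markers in the table, the myosins Myh1, Myh2 and Myh3 were at most 0.0182 FPKM in any heart, and Tnnt3, Actn3, Pvalb, Mylpf and Atp2a1 reached at most 2.04 FPKM; Ckm, which the heart also makes, was at 619 to 836 FPKM. WT2368 stood apart: the small nuclear RNA Rn7sk was at 2.12, 114 and 15.1 FPKM in SRAKO hearts and at 242, 14.6 and 5.34 FPKM in WT hearts. The product of FPKM and length that recurred most often among weak rows, which falls as depth grows, was 43.4 to 52.3 in SRAKO hearts and 68.5, 48.3 and 56.1 in WT hearts, so WT2368 was also the shallowest library by this measure. Because whole hearts were sequenced, fewer cells of a type and less RNA per cell cannot be told apart. Nothing in the labels names litters or sequencing batches, and the p-values below rest on these 6 hearts alone.

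Abundance varied widely among the genes and was greatest for muscle and heart isozymes. Ldhb, the lactate dehydrogenase subunit typical of heart, was the most abundant at a mean of 633 FPKM over all 6 hearts and ranked 50 among all rows. The muscle phosphoglycerate mutase Pgam2 followed at 571 FPKM, aldolase A (Aldoa) at 431 FPKM, the muscle enolase Eno3 at 333 FPKM and the muscle glycogen phosphorylase Pygm at 260 FPKM. Neighbours in this order from Aldoa down to Pfkm, the muscle phosphofructokinase at 203 FPKM, differed by more than the SDs of both over hearts, whereas Gapdh at 141 FPKM and Tpi1 at 141 FPKM did not. At the low end stood Pfkp at 3.20 FPKM, Pfkfb2 at 2.59 FPKM and the lactate exporter Slc16a3 at 0.484 FPKM. The steadiest genes were Ugp2, which makes the UDP-glucose used for glycogen, with a CV of 3.79% over the 6 hearts, and Pgam2 with 4.35%. Phka1 varied most, with a CV of 33.3%.

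**Figure D1:**
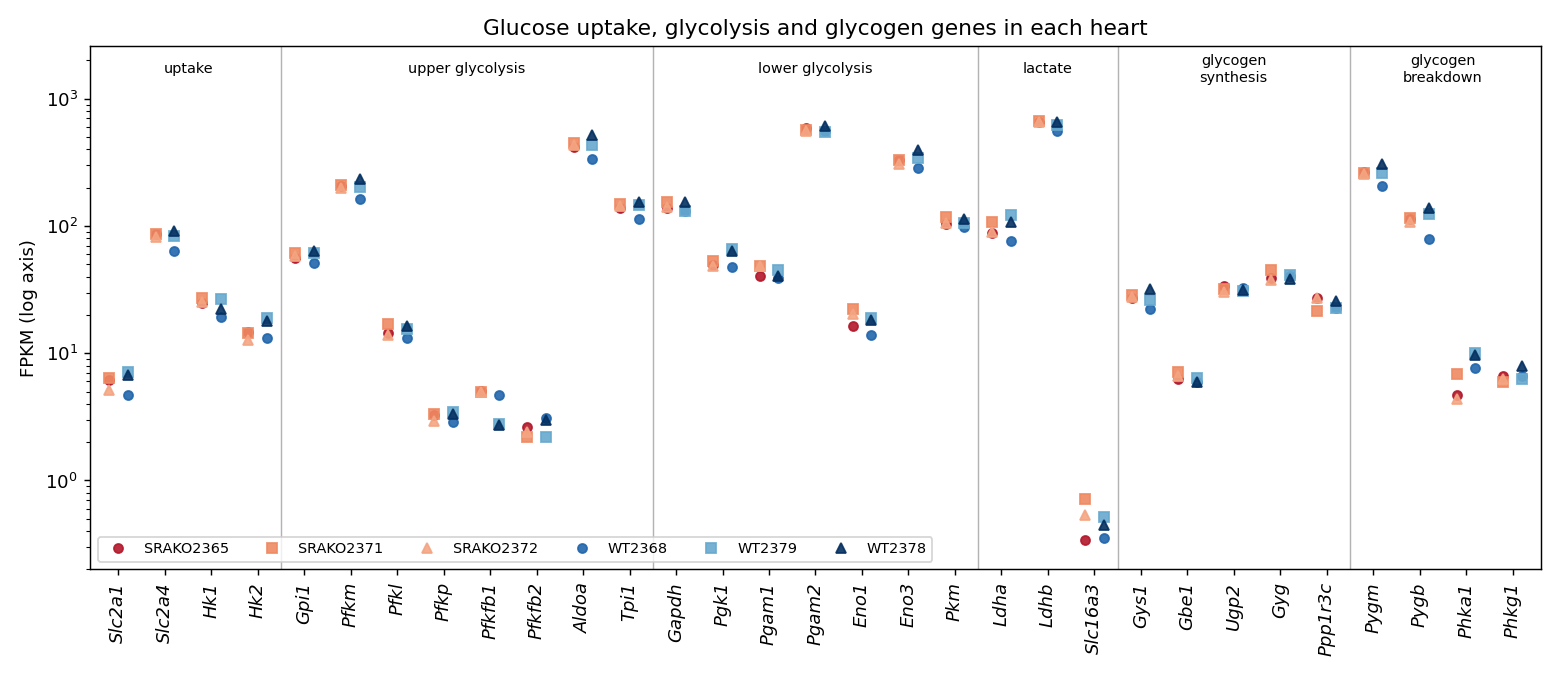
FPKM on a log axis for each of the 31 genes in each heart, with SRAKO hearts left of WT hearts and genes grouped by role. Symbols lie close together for most genes, from Ldhb near 633 FPKM to Slc16a3 near 0.484 FPKM, and part for Phka1 and Pfkfb1.

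None of these genes differed between genotypes past the adjusted threshold. Of the 31 genes 30 passed the filter of at least 1 FPKM in at least 3 hearts, and Slc16a3 did not. With limma's moderated test on log2(FPKM + 1) and Benjamini-Hochberg adjustment, 0 of the 30 had an adjusted p under 0.05, against 0.0196% of all 10201 rows tested, and each of the 30 had an adjusted p of 0.999. At an unadjusted p under 0.05 there were 2 of 30, against 3.46% of all rows. Of these, 1 was higher in SRAKO hearts (1.9% of all rows) and 1 was lower (1.56% of all rows). The genotypes did not overlap in 3 of the 30, 10% of them, against 8.05% of all rows. These shares rest on 1 to 3 genes each and lie near those of the table.

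Estimated differences were small as well as uncertain. The log2 difference, SRAKO minus WT, was above 0 in 20 of 30 genes, 66.7%, against 53.5% of all rows. Its median was 0.02 over the 30 genes and 0.01 over all rows. In absolute size the median was 0.07 over the genes and 0.08 over all rows, with a median SE of 0.13 and 0.12. In 28 of 30 genes the log2 difference lay within 0.25 of 0. The excess of genes higher in SRAKO hearts depended on single hearts. Without WT2368 10 of the 30 were higher in SRAKO hearts, against 38.8% of all rows, and without SRAKO2371, another heart with high Rn7sk, 15 were, against 55.5% of all rows. Without both hearts 7 were, against 40.5% of all rows.

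**Figure D2:**
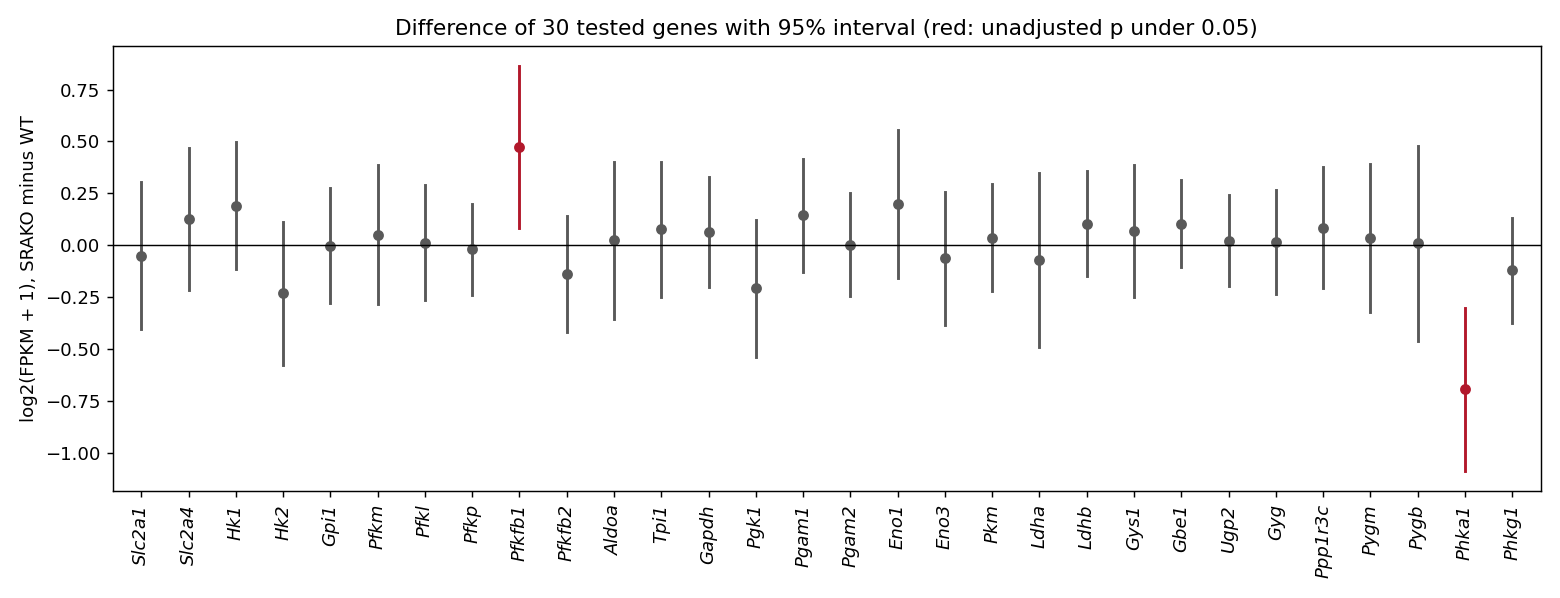
Log2 difference, SRAKO minus WT, of log2(FPKM + 1) for the 30 tested genes, with 95% intervals from limma. The intervals of 28 genes cross 0, and those of Pfkfb1 (0.08 to 0.86) and Phka1 (-1.09 to -0.30) do not.

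Transport and phosphorylation of glucose gave no difference past the test, with 2 of 4 genes higher in SRAKO hearts and a median log2 difference of 0.04. Slc2a4 encodes GLUT4, the transporter that insulin moves to the surface of muscle and fat cells, and was the most abundant of the 4. It was at 86.7, 87.2 and 82.3 FPKM in SRAKO hearts, against 63.0, 83.6 and 90.8 FPKM in WT hearts. The SRAKO hearts lay within the wider range of the WT hearts, whose lowest value was that of WT2368 (log2 difference 0.12, SE 0.15). Slc2a1 encodes GLUT1, the transporter of basal uptake, and was at 6.12, 6.34 and 5.12 FPKM in SRAKO hearts and at 4.67, 7.09 and 6.75 FPKM in WT hearts (log2 difference -0.05).

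The hexokinases had differences of opposite sign. Hk1, the isozyme that many tissues use constantly and that is prominent in the fetal heart, was at 24.8, 27.4 and 25.3 FPKM in SRAKO hearts, against 19.2, 26.6 and 22.3 FPKM in WT hearts. Hk2, the insulin-responsive isozyme of adult muscle, was at 14.7, 14.3 and 12.8 FPKM in SRAKO hearts, against 13.1, 19.0 and 18.1 FPKM in WT hearts. Each gene overlapped between genotypes, with log2 differences of 0.19 (SE 0.13) for Hk1 and -0.23 (SE 0.15) for Hk2 (exact two-sided permutation test, p = 0.3 for each). Their ratio within a heart did not overlap. Hk1 made up 62.8%, 65.6% and 66.4% of the FPKM of both hexokinases in SRAKO hearts, against 59.5%, 58.3% and 55.2% in WT hearts. The mean share was 65.0% ± 1.9 in SRAKO and 57.7% ± 2.21 in WT (SD, n = 3 each), a difference of 7.29 percentage points (exact two-sided permutation test, p = 0.1, the smallest possible; 0.267 after Benjamini-Hochberg adjustment over 8 isozyme shares). With any 1 heart left out the difference stayed between 6.06 and 8.36 points. A share within a heart does not change when all values of that heart are scaled, so a uniform scaling of a library does not enter it. In the annotation Hk1 spans chr10:62268855-62379908 and overlaps Hk1os on the other strand, and Hk2 spans chr6:82725025-82774454 and overlaps Gm17034 on the other strand. Reads of such overlapping genes could be mixed, since the labels do not state a stranded library.

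Of the glucose transporters, Slc2a1 made up 6.59%, 6.78% and 5.86% in SRAKO hearts and 6.89%, 7.82% and 6.92% in WT hearts. The genotypes did not overlap, but the distance between the closest hearts, SRAKO2371 and WT2368, was small. The means were 6.41% ± 0.486 in SRAKO and 7.21% ± 0.526 in WT (SD, n = 3 each; exact two-sided permutation test, p = 0.1, adjusted p = 0.267).

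Upper glycolysis had 5 of 8 genes higher and 3 lower in SRAKO hearts, with a median log2 difference of 0.02. Aldoa, which cleaves fructose 1,6-bisphosphate, was the most abundant at 415, 447 and 433 FPKM in SRAKO hearts, against 339, 432 and 521 FPKM in WT hearts. The WT hearts spanned the whole SRAKO range, and the means were 431 ± 15.9 FPKM in SRAKO and 431 ± 90.8 FPKM in WT (SD, n = 3 each). The same arrangement held for Pfkm, the muscle subunit of phosphofructokinase, the main control point of glycolysis. It was at 207, 209 and 199 FPKM in SRAKO hearts and at 163, 202 and 234 FPKM in WT hearts. Its liver and platelet paralogues Pfkl and Pfkp together made up 8.18% ± 0.573 of phosphofructokinase FPKM in SRAKO and 8.42% ± 0.652 in WT (SD, n = 3 each; exact two-sided permutation test, p = 0.7). Gpi1, the glucose 6-phosphate isomerase, and Tpi1, the triose phosphate isomerase, had log2 differences of -0.002 and 0.08.

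Pfkfb1 stood out in this group. It encodes a form of the bifunctional enzyme that makes and removes fructose 2,6-bisphosphate, the strongest activator of phosphofructokinase; the form is known from liver and skeletal muscle. Pfkfb1 was at 5.03, 4.97 and 4.98 FPKM in SRAKO hearts, against 4.74, 2.77 and 2.72 FPKM in WT hearts. The SRAKO hearts were nearly alike, WT2368 lay just under them, and the other WT hearts were clearly lower. The mean was 4.99 ± 0.0292 FPKM in SRAKO and 3.41 ± 1.15 FPKM in WT (SD, n = 3 each), 146% of WT. The log2 difference was 0.47 (SE 0.17, 95% interval 0.08 to 0.86; unadjusted limma p = 0.0234; exact two-sided permutation test, p = 0.1). After Benjamini-Hochberg adjustment limma's p was 0.999, so Pfkfb1 did not pass. The difference was 0.68 without WT2368, with the smallest adjusted p of all alternatives (limma, adjusted p = 0.166; up to 1.0 in the others). It was 0.36 without WT2378, where the unadjusted p was above 0.05, as it also was without SRAKO2365, SRAKO2372 or WT2379. Pfkfb1 lies at chrX:150588229-150643878 on the plus strand and overlaps Apex2 on the other strand.

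Pfkfb2, the heart form of the same enzyme that insulin and adrenergic kinases phosphorylate, was at 2.63, 2.19 and 2.42 FPKM in SRAKO hearts and at 3.11, 2.19 and 3.01 FPKM in WT hearts (log2 difference -0.14, SE 0.12). Pfkfb1 therefore made up 65.7%, 69.4% and 67.3% of the FPKM of both forms in SRAKO hearts, against 60.4%, 55.8% and 47.4% in WT hearts. The genotypes did not overlap, and the means were 67.5% ± 1.89 in SRAKO and 54.5% ± 6.59 in WT (SD, n = 3 each; exact two-sided permutation test, p = 0.1, adjusted p = 0.267). The other forms were not members: Pfkfb3, the inducible form, was at 1.18, 2.21 and 3.20 FPKM in SRAKO hearts and at 1.12, 1.64 and 1.73 FPKM in WT hearts, without separation of the genotypes.

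**Figure D3:**
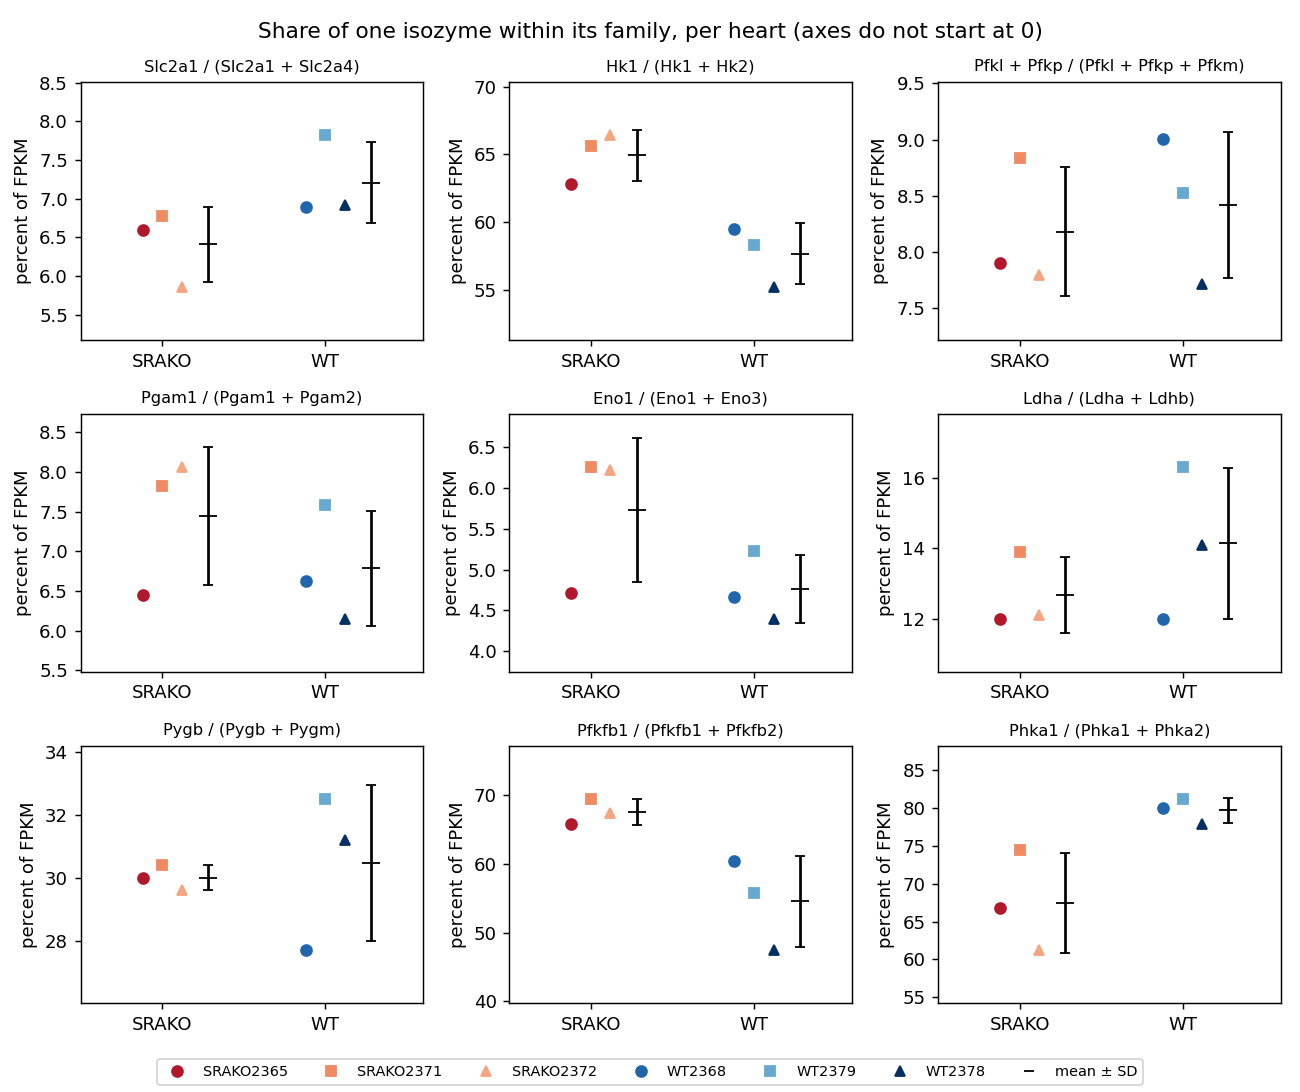
Percent of a family's FPKM taken by the named isozyme in each heart, SRAKO left and WT right in each panel, with mean and SD beside the points; axes do not start at 0. The genotypes are apart for Slc2a1, Hk1, Pfkfb1 and Phka1 and overlap in the other 5 panels. The Phka1 panel was chosen after the values were seen, and Pfkfb1 and Phka1 were apart as single genes too. How often shares of other gene pairs are apart was not computed.

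Lower glycolysis had 5 of 7 genes higher and 2 lower in SRAKO hearts, with a median log2 difference of 0.04. Pgam2 was almost identical between genotypes, at 585, 572 and 558 FPKM in SRAKO hearts and at 555, 545 and 613 FPKM in WT hearts (log2 difference 0.003, SE 0.11). Pgk1, the phosphoglycerate kinase that makes the first ATP of this phase, had the smallest p of the group. It was at 49.8, 53.2 and 48.4 FPKM in SRAKO hearts, against 47.6, 66.2 and 63.1 FPKM in WT hearts. WT2368 lay below all SRAKO hearts and the other WT hearts lay above them (log2 difference -0.21, SE 0.14; exact two-sided permutation test, p = 0.4). Without WT2368 the log2 difference of Pgk1 was -0.35 (limma, adjusted p = 0.714).

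The non-muscle isozymes Pgam1 and Eno1 had log2 differences above 0.1 but did not separate the genotypes. Pgam1 was at 40.3, 48.6 and 48.9 FPKM in SRAKO hearts and at 39.3, 44.7 and 40.2 FPKM in WT hearts (log2 difference 0.14, SE 0.12). Eno1 was at 16.4, 22.2 and 20.3 FPKM in SRAKO hearts and at 14.0, 19.0 and 18.1 FPKM in WT hearts (log2 difference 0.20, SE 0.15). Eno1 made up 5.72% ± 0.879 of enolase FPKM in SRAKO and 4.76% ± 0.417 in WT, and Pgam1 7.44% ± 0.869 of mutase FPKM in SRAKO and 6.78% ± 0.729 in WT (SD, n = 3 each; exact two-sided permutation tests, p = 0.2 for Eno1 and p = 0.3 for Pgam1). Eno3 was at 332, 333 and 307 FPKM in SRAKO hearts and at 286, 344 and 393 FPKM in WT hearts. Pyruvate kinase, Pkm, in a row shared with AC160637.1, had a log2 difference of 0.04, and Gapdh one of 0.06. Gapdh and Eno1 have near-identical copies in rows of their own, Gapdh-ps15 at a mean of 165 FPKM and Eno1b at 9.94 FPKM, so their levels are uncertain. With both Gapdh rows summed, an alternative added after the values were seen, the difference was 0.01.

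At the lactate step, Ldhb was at 651.4, 663 and 651.9 FPKM in SRAKO hearts, against 561, 622 and 650.8 FPKM in WT hearts. The genotypes did not overlap, but SRAKO2365 and WT2378 differed by less than 1 FPKM, and the log2 difference was 0.10 (SE 0.11; limma, adjusted p = 0.999). Ldha, the subunit of glycolytic muscle and a known target of hypoxia-inducible factor, was at 88.7, 107 and 90.1 FPKM in SRAKO hearts and at 76.5, 122 and 107 FPKM in WT hearts, again with WT2368 lowest and WT2379 highest. Ldha made up 12.7% ± 1.05 of lactate dehydrogenase FPKM in SRAKO and 14.1% ± 2.17 in WT (SD, n = 3 each; exact two-sided permutation test, p = 0.3). Slc16a3, the monocarboxylate transporter MCT4 that exports lactate from glycolytic cells, was at 0.338, 0.713 and 0.537 FPKM in SRAKO hearts and at 0.354, 0.516 and 0.444 FPKM in WT hearts, too low for the test. Slc16a1, the transporter MCT1, is not a member; it was at 22.1, 21.3 and 25.5 FPKM in SRAKO hearts and at 20.2, 28.9 and 25.4 FPKM in WT hearts.

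Glycogen synthesis genes differed little between genotypes. All 5 tested genes had a log2 difference above 0 in SRAKO hearts, but the range was 0.02 to 0.10 and the smallest p was that of Gbe1 (limma, adjusted p = 0.999). Gyg, the glycogenin protein that primes a new glycogen particle, was at 38.9, 45 and 37.6 FPKM in SRAKO hearts and at 40.5, 41.0 and 38.2 FPKM in WT hearts, and its sign depended on the heart left out (-0.06 to 0.07). Gbe1, the branching enzyme, was at 6.22, 7.08 and 6.57 FPKM in SRAKO hearts and at 5.93, 6.34 and 6 FPKM in WT hearts. Gys1, the muscle glycogen synthase, averaged 27.8 ± 0.628 FPKM in SRAKO and 26.8 ± 4.88 FPKM in WT. Ugp2 averaged 32.1 ± 1.73 FPKM in SRAKO and 31.6 ± 0.667 FPKM in WT, and Ppp1r3c, which brings protein phosphatase to glycogen, 25.3 ± 3.31 FPKM in SRAKO and 23.7 ± 1.82 FPKM in WT (SD, n = 3 each).

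Glycogen breakdown had 2 of 4 genes higher and 2 lower in SRAKO hearts, with a median log2 difference of -0.06. The means of the phosphorylases themselves lay close together, with wide intervals. Pygm was at 264, 262 and 257 FPKM in SRAKO hearts and at 208, 259 and 309 FPKM in WT hearts (log2 difference 0.03, SE 0.15, 95% interval -0.32 to 0.39). Pygb, the brain isozyme that the heart also makes, was at 113, 115 and 108 FPKM in SRAKO hearts and at 79.4, 125 and 140 FPKM in WT hearts (log2 difference 0.01, SE 0.20, 95% interval -0.46 to 0.48). Both had SRAKO hearts close together inside a wide WT range bounded by WT2368 and WT2378. Pygb made up 30% ± 0.412 of phosphorylase FPKM in SRAKO and 30.4% ± 2.5 in WT (SD, n = 3 each; exact two-sided permutation test, p = 0.8).

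Phka1, the muscle alpha subunit of phosphorylase kinase and a subunit that protein kinase A phosphorylates, had the largest difference and the smallest p of the 30 genes. It was at 4.71, 6.93 and 4.34 FPKM in SRAKO hearts, against 7.69, 10 and 9.71 FPKM in WT hearts. Every SRAKO heart lay below every WT heart, with SRAKO2371 and WT2368 closest to each other. The mean was 5.33 ± 1.40 FPKM in SRAKO and 9.15 ± 1.27 FPKM in WT (SD, n = 3 each), 58.2% of WT. The log2 difference was -0.70 (SE 0.17, 95% interval -1.09 to -0.30; unadjusted limma p = 0.00377; exact two-sided permutation test, p = 0.1). After Benjamini-Hochberg adjustment limma's p was 0.999, so Phka1 did not pass. With any 1 heart left out the difference ran from -0.87 to -0.58, each time with an unadjusted p under 0.05. It was -0.98 when WT2368 and SRAKO2371 were both left out, with the smallest adjusted p of all alternatives (limma, adjusted p = 0.2; up to 1.0 in the others). Phka1 spans chrX:102513975-102644246 on the minus strand, with no overlapping gene in the annotation, and its longest annotated transcript has 6.12 kb.

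Genes of the other alpha, beta and gamma subunits of phosphorylase kinase overlapped between genotypes. The liver alpha subunit Phka2, the nearest paralogue, was at 2.34, 2.39 and 2.75 FPKM in SRAKO hearts and at 1.93, 2.33 and 2.76 FPKM in WT hearts. Phka1 thus made up 66.8%, 74.4% and 61.2% of alpha subunit FPKM in SRAKO hearts, against 80.0%, 81.2% and 77.9% in WT hearts, without overlap (exact two-sided permutation test, p = 0.1); this share was chosen after the values were seen. The catalytic gamma subunit Phkg1, a member, was at 6.66, 5.91 and 6.31 FPKM in SRAKO hearts and at 6.58, 6.32 and 7.99 FPKM in WT hearts (log2 difference -0.12, SE 0.11). In the annotation Phkg1 overlaps Gm42790 and Chchd2 on the same strand and Sumf2 and Zbed5 on the other, so reads could be mixed. The beta subunit Phkb had a log2 difference of 0.01 (SE 0.10) and the gamma subunit Phkg2 one of 0.15 (SE 0.09).

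**Figure D4:**
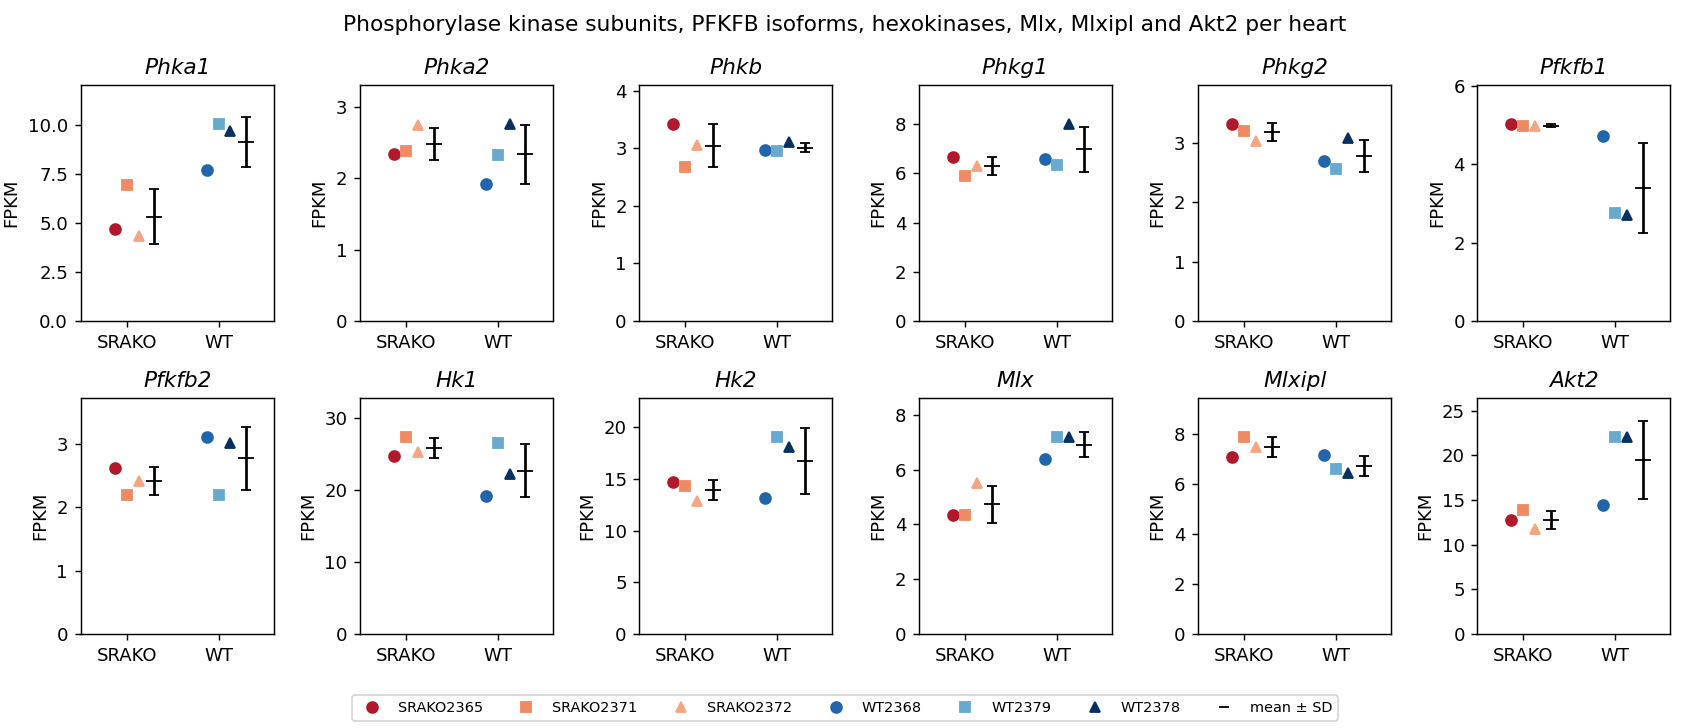
FPKM per heart, SRAKO left and WT right, with mean and SD, for phosphorylase kinase subunits, PFKFB isoforms, hexokinases, Mlx, Mlxipl and Akt2; each axis starts at 0. Phka1, Mlx and Akt2 are lower and Pfkfb1 is higher in every SRAKO heart than in any WT heart, while Phka2, Phkb, Phkg1, Phkg2, Pfkfb2, Hk1, Hk2 and Mlxipl overlap.

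Other genes of the pathway were read from lists of genes outside the 31, against the shares of all rows that were higher (53.5%) or had an unadjusted p under 0.05 (3.46%). Of 8 tested genes for further isozymes and transporters 4 were higher and 4 lower in SRAKO hearts, and 0 had an unadjusted p under 0.05. Of 18 tested glycogen genes reported here 11 were higher and 7 lower, and 0 had an unadjusted p under 0.05. Of 17 tested genes of the side branches 11 were higher and 6 lower, and 0 had an unadjusted p under 0.05. No gene of these lists had an adjusted p under 0.05 with all hearts included. Among their tested genes the genotypes did not overlap for Slc2a8 and Gsk3a, both higher in SRAKO hearts, against 8.05% of all rows tested.

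Among 22 tested regulators, 8 were higher and 14 lower in SRAKO hearts, where 53.5% of all rows were higher. Of these 22 genes 2 had an unadjusted p under 0.05, both lower, against 1.56% of all rows. The list was drawn up with earlier results of these data known, so these counts describe it and do not test it. Mlx, the partner through which the glucose sensors ChREBP and MondoA bind DNA, was at 4.33, 4.33 and 5.53 FPKM in SRAKO hearts, against 6.37, 7.18 and 7.18 FPKM in WT hearts. The genotypes did not overlap (log2 difference -0.47, SE 0.11; unadjusted limma p = 0.00336, adjusted p = 0.999; exact two-sided permutation test, p = 0.1). The genes of those partners had differences above 0 that did not pass: Mlxipl, for ChREBP, had a log2 difference of 0.13 (SE 0.09) and Mlxip, for MondoA, one of 0.18 (SE 0.20). Txnip, a target of both that restrains glucose uptake, was at 102, 159 and 136 FPKM in SRAKO hearts and at 51.5, 188 and 197 FPKM in WT hearts, with WT2368 far below the rest.

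Akt2, the kinase through which insulin moves GLUT4 to the cell surface, was at 12.7, 13.8 and 11.8 FPKM in SRAKO hearts, against 14.5, 22.0 and 22.0 FPKM in WT hearts. WT2368 lay close to the SRAKO hearts, and the genotypes did not overlap (log2 difference -0.55, SE 0.17; unadjusted limma p = 0.0117, adjusted p = 0.999; exact two-sided permutation test, p = 0.1). Tbc1d4, the AKT substrate that holds GLUT4 inside the cell, was at 3.99, 3.52 and 4.64 FPKM in SRAKO hearts and at 4.50, 1.51 and 1.6 FPKM in WT hearts, where WT2368 lay among the SRAKO hearts. Its log2 difference was 0.61 (SE 0.29; exact two-sided permutation test, p = 0.3). Hif1a was at 3.17, 2.80 and 3.14 FPKM in SRAKO hearts and at 2.87, 4.53 and 2.78 FPKM in WT hearts, without separation of the genotypes.

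Many of the 30 genes varied among hearts of the same genotype, and the parts of heart and genotype in the variation were not computed. WT2368 had the lowest value of the 6 hearts in 21 of 30 genes, against 44.9% of all rows, and its median deviation from the mean of the hearts was -0.18 on the log2 scale over these genes and -0.10 over all rows. WT2378 had the highest value in 12 of 30 genes, against 22.4% of all rows, with a median deviation of 0.13 over these genes and 0.04 over all rows. SRAKO hearts lay between them, with median deviations of 0.01, 0.07 and -0.02. The summed FPKM of the 31 genes was 3501, 3622 and 3461 in SRAKO hearts and 3022, 3530 and 3888 in WT hearts. The low values of WT2368 went with its high Rn7sk and its shallow library, and the part of these in the result was not tested.

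**Figure D5:**
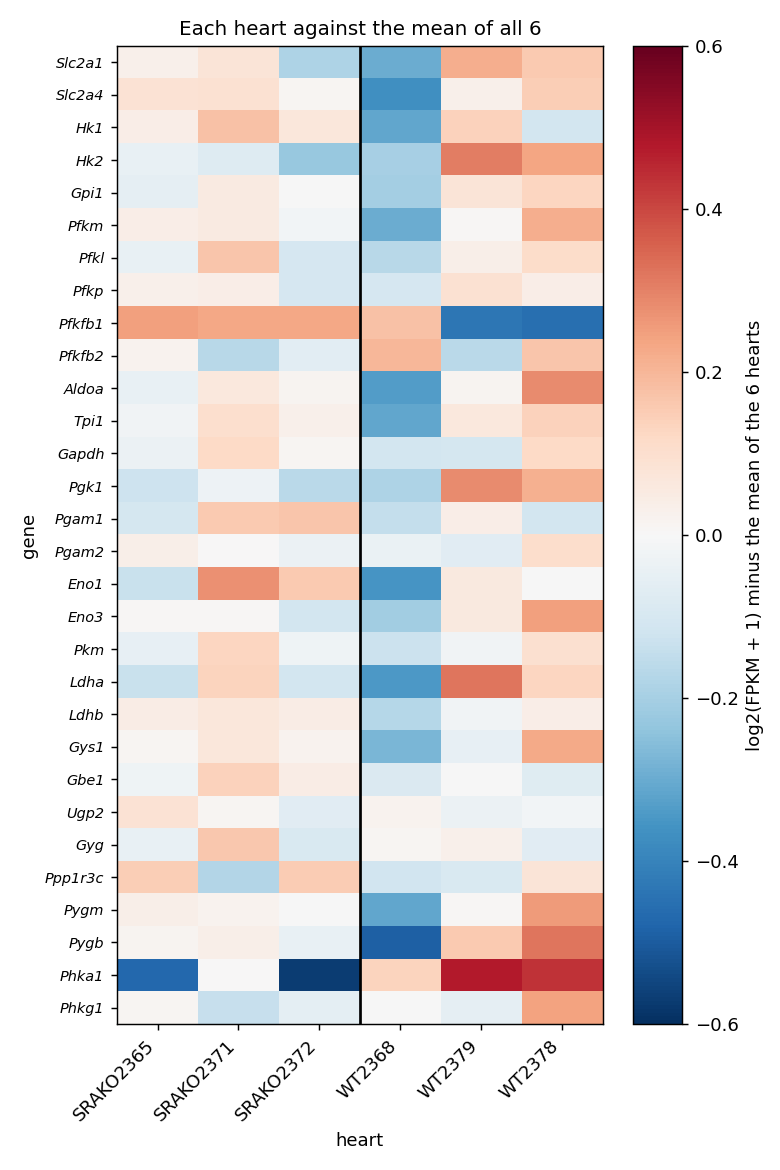
Deviation of log2(FPKM + 1) from the mean of the 6 hearts for the 30 tested genes, SRAKO hearts left of the line and WT hearts right, blue below and red above the mean. The column of WT2368 is blue for most genes, being the lowest heart in 21 of 30. In the row of Pfkfb1, WT2368 (0.17) is above the mean like the SRAKO hearts. In the row of Phka1, SRAKO2371 (0.0004) lies at the mean, between the other SRAKO hearts and the WT hearts.

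Markers of other cell types moved with some hearts. Their counts by direction stand beside 53.5% of all rows tested that were higher in SRAKO hearts. Adipocyte markers were higher in SRAKO hearts in 9 of 9 tested genes, with a summed level of 252, 606 and 380 FPKM in SRAKO hearts and 259, 240 and 293 FPKM in WT hearts, and none of the 10 markers was at 0 in any heart. Of the side branch genes, Gpd1, which makes glycerol 3-phosphate, was at 20.1, 106 and 61.6 FPKM in SRAKO hearts and at 22.0, 19.1 and 34.9 FPKM in WT hearts, and Tkt (in a row with Mir3076), the transketolase of the pentose phosphate branch, at 3.44, 11.7 and 5.50 FPKM in SRAKO hearts and at 2.91, 3.78 and 4.07 FPKM in WT hearts. Both were highest in SRAKO2371, as was the summed level of the adipocyte markers, and the part of fat tissue in these values was not tested. Within SRAKO hearts Phka1 too was highest in SRAKO2371, whereas Pfkfb1 differed by less than 0.1 FPKM between them. Erythroid markers were lower in SRAKO hearts in 5 of 5 tested genes, at 2425, 1070 and 1088 FPKM in SRAKO hearts and 2096, 1801 and 1397 FPKM in WT hearts, and none of the 6 markers in the table was at 0 in any heart. Neutrophil markers were higher in 4 of 4 tested genes, at 3.56, 34.1 and 69.6 FPKM in SRAKO hearts and 2.08, 13.4 and 1.36 FPKM in WT hearts, with Ly6g at 0 in 4 hearts and S100a8, Retnlg, Camp, Ltf, Ngp and Cxcr2 at 0 in at least 1. Atrial markers were lower in 6 of 6, at 2980 to 3511 FPKM in SRAKO hearts and 2485, 8442 and 3747 FPKM in WT hearts. Macrophage markers were higher in 8 of 9, at 235, 244 and 259 FPKM in SRAKO hearts and 195, 234 and 226 FPKM in WT hearts. Smooth muscle markers were higher in 5 of 6, at 334, 326 and 333 FPKM in SRAKO hearts and 273, 284 and 340 FPKM in WT hearts. Fibroblast markers were lower in 6 of 8, at 178, 179 and 173 FPKM in SRAKO hearts and 161, 194 and 170 FPKM in WT hearts, and endothelial markers in 6 of 8, at 185, 167 and 181 FPKM in SRAKO hearts and 170, 188 and 188 FPKM in WT hearts. No marker of these last 4 lists was at 0 in any heart. Among the tested markers of these cell types the genotypes did not overlap for C1qa (higher), Myh11 (higher), Postn (lower) and the atrial Kcnj3 (lower). Of all rows tested 8.05% did not overlap. The part of these cell types in the differences of the 30 genes was not tested.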

How the data were processed

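Poly(A) RNA of 6 whole hearts was sequenced, per the labels' protocols, and genotypes were taken from the sample titles. The authors deposited FPKM values per gene in 1 table of 25901 rows, of which 9536 are loci assembled by StringTie. Tools named in the submitters' processing notes are StringTie 1.3.4d, HISAT2 2.0.4, edgeR and cutadapt 1.9, and the build named there is hg38, but 98.3% of the 82368 transcript identifiers are in the mouse annotation GENCODE M21 on GRCm38, from which positions were taken. FPKM holds no counts, so no count test was run and only relative depth was read from recurring low values.

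All rows with at least 1 FPKM in at least 3 hearts, 10201, were fitted by genotype on log2(FPKM + 1) with limma 3.58.1 in R 4.3.3. The fit had a variance trend, a prior of 3.69 degrees of freedom, two-sided tests and Benjamini-Hochberg adjustment over all rows at 0.05. A log2 difference on this scale understates the change of low genes. Intervals are 95% intervals of that fit. Isozyme shares were computed from FPKM per heart and compared with exact permutation tests in Python 3.11.15 with SciPy 1.17.1. Code was tested on simulated data. The genes and lists were chosen with earlier results of these data known, and some genes of these lists are not reported here. Values per heart are given for genes with an unadjusted p under 0.05 or without overlap, for the most abundant gene and that with the smallest p in each role, for isozyme pairs, and for further genes chosen after their values were seen. Alternatives changed the pseudocount, filter, trend, weights, scaling and hearts included.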

Additional observations from a re-analysis of the deposited data

How the results depend on the processing

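Of 428 alternative values 24 changed sign, all of them for results that did not pass a test, and 21 counts moved. Some of the 428 could not change. Each gene had 1 row, so summing the rows of a gene left its value as it was. The pair WT2368 and SRAKO2371 holds 1 heart of each genotype, so using it as a batch term left the log2 differences unchanged. The number of unchanged values is therefore no measure of stability. With all settings tried, 0 of the genes had an adjusted p under 0.05 (limma). The 2 rows of the whole table with an adjusted p under 0.05 became 1 with a pseudocount of 0.1, with a filter at 5 FPKM or with values scaled to equal totals, and 0 with no filter, without both WT2368 and SRAKO2371, or with that pair as a batch term (limma; 3.55%, 6.56% and 3.99% of rows at an unadjusted p under 0.05). With 1 heart left out the number ranged from 0 to 6. The 2 genes at an unadjusted p under 0.05 became 1 with a filter at 5 FPKM, which removes Pfkfb1, or with equal medians, 4 with array weights (also Hk2 and Pgk1, against 6.62% of all rows), 6 without WT2368 and SRAKO2371 (also Hk2, Pgk1, Pygb and Ldha, against 6.56% of all rows), and 1 to 5 with 1 heart left out (1.98% to 6.8% of all rows). The 20 genes higher in SRAKO hearts became 12 with array weights, 7 without WT2368 and SRAKO2371, and 10 to 23 with 1 heart left out, where 42.5%, 40.5% and 38.8% to 61.1% of all rows were higher. Their median log2 difference was -0.024, -0.083 and -0.064 to 0.094 in these fits, and that of all rows -0.022, -0.033 and -0.037 to 0.037.

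Signs turned for genes near 0 and also for Slc2a4, at 0.125 with all hearts. Aldoa was at -0.069 with array weights, -0.162 without WT2368 and SRAKO2371, and -0.137 to 0.172 with 1 heart left out. Pygm was at -0.044, -0.116, and -0.114 to 0.171, and Gyg at -0.007, -0.049, and -0.06 to 0.067, in the same order. Without WT2368 and SRAKO2371 Slc2a4 was at -0.044 (-0.029 to 0.231 with 1 heart left out) and Gapdh at -0.02. Pgam2 was at -0.008 with equal medians, -0.018 without that pair, and -0.029 to 0.056 with 1 heart left out. With 1 heart left out, the difference in the share of Pfkl and Pfkp ran from -0.594 to 0.0508 points and that of Pygb from -1.81 to 0.609 points. The cause was not tested. No paired analysis was possible because the hearts of the genotypes share no number. With 3 hearts a genotype, the median SE of 0.13 limits what can be seen.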
